A study of Cucumis x hytivus and Cucumis hystrix and Cucumis sativus with 8 samples.

Results

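The miR398 family is represented by 7 of the 733 mature miRNA sequences listed for leaves of 3 Cucumis species, a synthetic allotetraploid and both diploids it was made from. They were taken by name, as every entry whose name holds miR398 followed by a character that is not a digit, with each mature sequence taken once. 5 of them carry the name miR398a and 2 the name miR398b. Small RNA reads were counted in 4 groups of 2 libraries each. These were young leaves (first from the top) and mature leaves (first fully grown) of C. × hytivus, an allotetraploid in selfed generation 10, and mature leaves of C. hystrix and of C. sativus 'BeijingJietou', both diploid. All plants were seedlings grown under the same chamber climate, and the labels name no treatment. Young leaves were taken from the allotetraploid alone. Nothing in the labels says that the libraries of a group came from separate plants, so the p-values reflect the spread between libraries, part or all of which may be technical.

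In plants studied so far, miR398 guides the cutting of messages for Cu/Zn superoxide dismutases and for the chaperone that loads copper into them. In Arabidopsis it is made when copper is short, under the transcription factor SPL7, together with miR397, miR408 and miR857. Loss of those messages is thought to spare copper for plastocyanin, the copper protein of photosynthetic electron transport. The mature strand comes from the 3p arm of the hairpin, and the 5p arm is the passenger.

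The sequences show how the a and b members differ, and they are printed 5′ to 3′ as DNA letters with the seed, bases 2 to 8, in capitals. The first 3 lines are length forms of miR398a and the next is miR398b, all from the 3p arm. The last 3 are 5p arms.
miR398a, 21 nt: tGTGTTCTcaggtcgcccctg
miR398a, 20 nt: tGTGTTCTcaggtcgcccct
miR398a, 23 nt: tGTGTTCTcaggtcgcccctgtt
miR398b, 21 nt: tTGTGTTCtcaggtcacccct
miR398b-p5, 22 nt: gGAGTGAAcctgagaacacaag
miR398a-5p, 21 nt: gGAGTGAAcctgagaacacaa
miR398a-p5, 21 nt: tGGTCGTCctgagaacacatg
The 3 forms of miR398a share their 5′ end and seed, and differ only in where the 3′ end lies. miR398b starts 1 base earlier, so its seed is a different 7-letter word. Aligned over the 20 bases they share, miR398b and the 21-nt miR398a differ by A16G, counted from 1 at the 5′ end of miR398b. The table marks the 21-nt miR398a as a sequence already in miRBase, miR398a-p5 and miR398b-p5 as new, and the other 4 as different from the miRBase sequence of their name.

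The listed hairpins lie on chromosomes 1 and 5, in a genome build not given in the sources used here. The 21-nt miR398a and miR398a-p5 are placed at chr1:24920780-24920890 on the plus strand. miR398b and miR398b-p5 are placed at chr5:22921419-22921540 on the minus strand. The 20-nt miR398a and miR398a-5p are placed at chr5:22921335-22921455, also on the minus strand, an interval that overlaps that of miR398b by 37 bp. The 23-nt form has no position. No gene annotation was used, so whether these loci lie in genes is not stated. The names do not separate loci cleanly: the 20-nt form on chromosome 5 equals the first 20 bases of the 21-nt form on chromosome 1, and miR398a-5p equals the first 21 bases of miR398b-p5. Reads of the 20-nt and 21-nt forms also seem tied in the counting, since the 21-nt value ends in 0.5 read in 6 libraries and the 20-nt value does so in the same ones. Which locus those reads came from cannot be told apart here.

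Libraries held 99196 to 464306 listed reads, with each sequence counted once, and miR398 took 0.126% and 0.0914% of them in young leaves. The mature allotetraploid libraries had 3.64% and 0.364%, those of C. hystrix 2.35% and 0.233%, and those of C. sativus 1.91% and 2.3%. The second C. sativus library stands apart. Families known as fragments of ribosomal or transfer RNA, 71 entries in all, took 58% of its reads against 5.75% to 16.2% in the other 7 libraries. Values below are CPM (counts scaled to a common total), taken over the TMM-scaled library size, and fold changes are log2 values with standard errors (SE). The quasi-likelihood test of edgeR was run over 208 entries, and a difference is called below a Benjamini-Hochberg adjusted p of 0.05. In bulk leaf RNA, fewer cells of a type and less of a miRNA per cell cannot be told apart.

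The 21-nt miR398a was the main form in every library, with 23213 reads over all of them. Mature allotetraploid leaves had 32243 and 4388 CPM, C. hystrix had 27690 and 2868 CPM, and C. sativus had 14371 and 8404 CPM. In young leaves it was at 846 and 544 CPM, below all 6 mature libraries. By group mean the mature allotetraploid came first with 18315 ± 19696 CPM (SD, n = 2). C. hystrix followed with 15279 ± 17552, then C. sativus with 11387 ± 4219 and young leaves with 695 ± 214. The ranges of the 3 mature groups overlapped. Within a group the higher library exceeded the lower by 9.66-fold for C. hystrix, 7.35-fold for the mature allotetraploid, 1.71-fold for C. sativus and 1.56-fold for young leaves.

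miR398b was a minor form beside the 21-nt miR398a in mature leaves but not in young ones, and its young libraries lay within the range of the mature ones. Between the C. hystrix libraries it differed by 8.49-fold, near the 9.66-fold of the 21-nt miR398a. miR398b was at 471 and 379 CPM in young leaves, and at 484 and 250 CPM in mature allotetraploid leaves. It was at 400 and 47.2 CPM in C. hystrix and at 347 and 425 CPM in C. sativus. The second C. hystrix library was low, on 8 reads, and the ranges of every pair of groups overlapped. Young leaves had the highest group mean, 425 ± 65.4 CPM (SD, n = 2), followed by C. sativus with 386 ± 55.5, the mature allotetraploid with 367 ± 165 and C. hystrix with 224 ± 250.

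**Figure D1:**
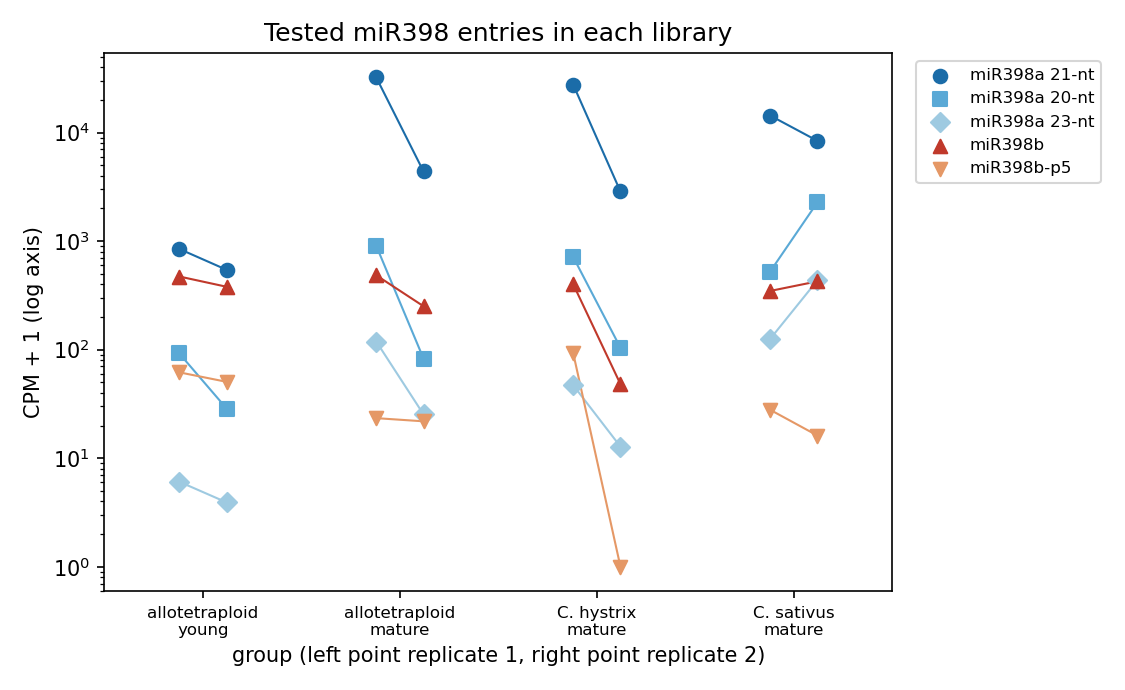
CPM plus 1 (log axis) of the 5 tested miR398 entries in each of the 8 libraries, with the libraries of a group joined by a line. The 21-nt miR398a is at 846 and 544 CPM in the young libraries and at 2868 CPM or more in every mature one, while miR398b lies between 250 and 484 CPM in all libraries but the second of C. hystrix.

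The other forms and arms were rarer than the 21-nt miR398a in every library. The 20-nt miR398a was at 91.2 and 27.7 CPM in young leaves, and mature allotetraploid leaves had 905 and 81.7 CPM. C. hystrix had 714 and 103 CPM of it, and C. sativus 523 and 2275 CPM. The 23-nt form was at 5.07 and 2.91 CPM in young leaves, on 2 and 1 reads, against 118 and 24.3 CPM in mature ones. C. hystrix had 46.1 and 11.8 CPM of this form and C. sativus 125 and 434 CPM. Both were highest in the second C. sativus library, the one rich in fragments. miR398b-p5, the passenger of miR398b, was at 60.8 and 49.6 CPM in young leaves, with 22.4 and 20.9 CPM in mature ones. C. hystrix had 92.1 and 0 CPM, and C. sativus 26.9 and 15.2 CPM. The count of 0 in the second C. hystrix library allows up to 17.7 CPM (3 reads). miR398a-5p had 15 reads in all libraries together and miR398a-p5 had 1, and these 2 entries did not pass the filter on low counts. All 5p entries together held 105 reads against 25286 of the 3p arm.

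Young against mature leaves of the allotetraploid address leaf age, which goes with position on the plant. The 21-nt miR398a was far lower in young leaves, at 695 ± 214 against 18315 ± 19696 CPM (SD, n = 2 each), without passing the threshold. Its log2 difference was −4.72 (SE 1.27, edgeR adjusted p = 0.072). miR398b was at 425 ± 65.4 against 367 ± 165 CPM, in ranges that overlapped. Its log2 difference was +0.21 (SE 1.07, adjusted p = 0.93), with a 95% interval of −2.03 to 2.46, so changes of several fold in either direction are not shut out. Its sign was negative with scaling to conserved families (−0.07) or without the fragment-like families (−0.04).

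The length forms of miR398a lay on the same side as the main form. The 20-nt form differed by −3.02 (SE 1.33, edgeR adjusted p = 0.32) and the 23-nt form by −3.97 (SE 1.46, edgeR adjusted p = 0.21). Without the first mature allotetraploid library these values were −0.47 (edgeR adjusted p = 0.96) and −2.47 (edgeR adjusted p = 0.73). miR398b-p5 was higher in young leaves, by +1.33 (SE 1.62, adjusted p = 0.8), on 24 and 17 reads against 5 and 6. The young and mature ranges did not overlap for 3 of the 5 tested members, beside 63.9% of all tested entries. The 21-nt and 23-nt miR398a were lower (background 29.8%) and miR398b-p5 was higher (background 34.1%).

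Of the 5 members tested, 0 were called by edgeR in young against mature leaves, beside 1.92% of all 208 entries tested. At unadjusted p under 0.05 there were 3, the forms of miR398a, beside 27 of all 208 entries. DESeq2 called 1 of the 5, the 21-nt miR398a (DESeq2 adjusted p = 0.00062), beside 17 of all 208 entries. In limma 0 members were called, beside 3 entries. The median over the 5 members was −3.02, beside −0.03 over all tested entries, but it is the value of a single length form of miR398a. The 3 length forms are not separate units, since they share a sequence and reads of some of them seem tied in the counting. miR398b and miR398b-p5 lay on the other side of 0, at +0.21 and +1.33. Over 17 alternatives the 21-nt miR398a kept its sign and passed in 5, with values from −5.54 to −2.66 and adjusted p from 1.9e-09 to 0.64. The lowest and highest differences came without the second mature library (−5.54) and without the first (−2.66, edgeR adjusted p = 0.5). The fragment-like families took 5.75% and 6.31% of young-leaf reads and 16.2% and 11.3% of mature-leaf reads. With these families left out the difference was −5.0 (edgeR adjusted p = 0.073).

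Families known from other leaf tissues were set beside these values as sums of their entries, without a test. Of the families of the shoot apex and leaf primordia, miR390 (9 entries) was at 1355 and 944 CPM in young leaves and at 211 and 189.6 CPM in mature allotetraploid leaves, so it was higher in both young libraries. miR164 (11 entries) overlapped, at 1774 and 1489.5 against 2011 and 1266 CPM. miR319 (9 entries), a family of leaf growth like miR164, also overlapped, at 7074 and 9577 against 7699 and 5908 CPM. Of the families reported from phloem sap, miR827 (3 entries) was lower in both young libraries, at 98.8 and 46.6 against 367 and 549.6 CPM. miR395 (3 entries) overlapped, at 71.0 and 51.0 against 163 and 52.2 CPM. miR399 (7 entries) was slightly higher in both young libraries, at 41.8 and 48.1 against 40.3 and 24.3 CPM. None of these families was absent from the 4 libraries, and their part in the miR398a difference was not tested.

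The balance of a to b, which needs no scaling of libraries, differed between the young and the mature libraries. There were 1.8 and 1.43 reads of the 21-nt miR398a per read of miR398b in young leaves. Mature allotetraploid leaves had 66.7 and 17.5, C. hystrix had 69.2 and 60.8, and C. sativus had 41.5 and 19.8. Both young libraries thus lay below all 6 mature ones, and the exact 95% binomial intervals, which cover counting error only, did not reach them: 1.14 was the lowest and 2.16 the highest bound in young leaves, against a lowest bound of 13.8 in mature ones. How many other entries separate in this way by their ratio to miR398b is not given here. By CPM, 63.9% of all tested entries did not overlap between young and mature allotetraploid leaves, so separation alone does not set this pair apart. Because reads could have been divided between listed loci, the ratio is not a ratio of molecules, and its change between libraries is free of that only if the division was the same in each. miR398b made up 35.8% and 41.1% of the reads of this pair in young leaves and 1.43% to 5.4% in mature leaves.

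**Figure D2:**
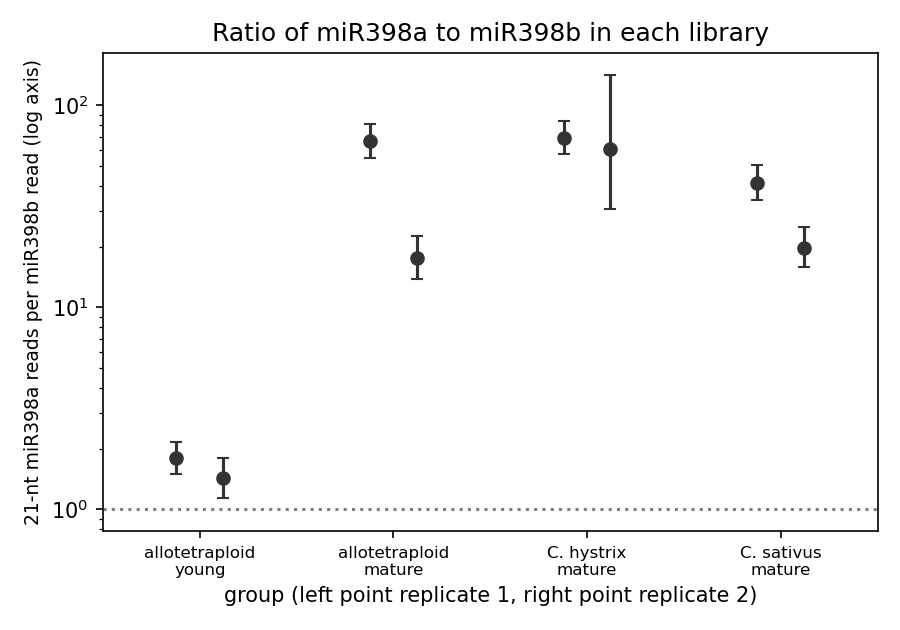
Reads of the 21-nt miR398a per read of miR398b in each library (log axis), with exact 95% binomial intervals that cover counting error only. The dotted line marks equal numbers, and the young libraries at 1.8 and 1.43 lie near it while the mature libraries lie between 17.5 and 69.2.

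On the log2 scale with 0.5 read added, the ratio averaged 0.68 ± 0.23 in young leaves (SD, n = 2) and 5.09 ± 1.37 in mature allotetraploid leaves. The difference was −4.41, with a two-sided exact permutation p of 0.333, the smallest that 2 against 2 libraries can give. Leaving out a library gave differences from −5.37 to −3.44. A limma fit over the ratios of 207 tested entries to miR398b, chosen after seeing the data, gave an SE of 1.60, a 95% interval of −7.70 to −1.11 and a limma adjusted p of 0.22. All ratios in that fit share miR398b as denominator, so its sampling error enters each of them.

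Among mature leaves the mean ratio was highest in C. hystrix, whose libraries lay above both of C. sativus, while those of the allotetraploid overlapped with both parents. The second C. hystrix ratio, 60.8, rests on 8 miR398b reads and has an exact 95% binomial interval of 30.6 to 142. That interval holds the ratio of the first C. sativus library, 41.5. The log2 ratio averaged 5.97 ± 0.19 in C. hystrix and 4.83 ± 0.76 in C. sativus (SD, n = 2 each). The allotetraploid minus C. hystrix difference was −0.89 (exact permutation p = 0.667, limma 95% interval −4.18 to 2.41) and turned to 0.08 without the second allotetraploid library. Allotetraploid minus C. sativus was 0.26 (exact permutation p = 1, interval −3.04 to 3.55), and turned to −0.71 without the first allotetraploid library and to −0.28 without the second C. sativus library. C. hystrix minus C. sativus was 1.14 (exact permutation p = 0.333, the smallest possible, interval −2.15 to 4.43). The mid-parent is the log2 mean of C. hystrix and C. sativus, from which the allotetraploid differed by −0.32 (limma interval −3.17 to 2.54).

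The libraries of a group also differed in how a and b went together. Between the C. hystrix libraries both changed by about the same factor, 9.66-fold for the 21-nt miR398a and 8.49-fold for miR398b, and the ratio stayed at 69.2 and 60.8. Between the mature allotetraploid libraries miR398a differed by 7.35-fold and miR398b by 1.93-fold. In C. sativus miR398a was lower in the second library, at 8404 against 14371 CPM, and miR398b was higher there, at 425 against 347 CPM.

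The allotetraploid against C. hystrix, in mature leaves, showed little difference in any member beside the spread of the libraries. The 21-nt miR398a differed by +0.26 (SE 1.09, 95% interval −2.04 to 2.56) and miR398b by +0.70 (SE 1.08, interval −1.57 to 2.97). The 20-nt form was at +0.26, the 23-nt form at +1.22 and miR398b-p5 at −1.12. The ranges of all 5 overlapped, beside 18.8% of tested entries whose ranges did not. The edgeR test called 0 of the 5, beside 0% of all 208 entries, with 0 members at unadjusted p under 0.05, and DESeq2 and limma called 0. The 21-nt miR398a turned to −1.80 without the first allotetraploid library and −0.60 without the second C. hystrix library.

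Against C. sativus the 20-nt and 23-nt forms of miR398a lay on the other side of 0 from the 21-nt form. The 21-nt miR398a was at +0.69 in the allotetraploid (SE 1.10, 95% interval −1.62 to 2.99) and miR398b at −0.07 (SE 1.07, interval −2.32 to 2.18). The 20-nt form was at −1.50 (SE 1.25) and the 23-nt form at −1.99 (SE 1.25), with miR398b-p5 at +0.02. Without the second C. sativus library, the one rich in fragments, the 20-nt form was at −0.09 and the 23-nt form at −0.83, and without the first allotetraploid library they were at −4.06 and −3.5. Without the second allotetraploid library they were at −0.63 and −1.26. The 23-nt form alone had ranges that did not overlap, at 118 and 24.3 against 125 and 434 CPM, beside 10.6% of tested entries that were lower without overlap. The edgeR test called 0 of the 5, beside 0.481% of all entries, with 0 members at unadjusted p under 0.05. DESeq2 called 0, with 1 at unadjusted p under 0.05, and limma called 0. The sign of the 21-nt form turned with scaling to conserved families (−0.19) and without the first allotetraploid library (−1.38), and that of miR398b-p5 turned under most alternatives.

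Between the parents the 23-nt miR398a had the largest difference of the 5 members. It was at 46.1 and 11.8 CPM in C. hystrix against 125 and 434 in C. sativus, on 13 and 2 against 37 and 85.8 reads, with a difference of −3.21 (SE 1.32, edgeR adjusted p = 0.46). These ranges did not overlap, beside 12.5% of tested entries that were lower in C. hystrix without overlap. The 23-nt form was at −3.82 without the first C. sativus library and at −2.04 without the second. The 20-nt form was at −1.76 (SE 1.26) and at −0.34 without the second C. sativus library. The 21-nt form was at +0.42 (SE 1.09), but at −0.49 with no TMM factor and −0.66 with scaling to conserved families. Under those scalings the median of all tested entries moved from −0.11 to −0.99 and −0.98. miR398b was at −0.77 (SE 1.08) and miR398b-p5 at +1.14 (SE 1.63). The edgeR test called 0 of the 5, beside 0.962% of all entries, with 1 member at unadjusted p under 0.05, and DESeq2 and limma called 0. The second C. hystrix library was the lower of its group in every tested member, and without it miR398b was at 0.05.

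Against the mid-parent, 0 of the 5 members were called by edgeR, beside 0% of all entries, with 0 at unadjusted p under 0.05, and DESeq2 and limma called 0. The 21-nt miR398a was at +0.47 (SE 0.93, 95% interval −1.48 to 2.43) and miR398b at +0.31 (SE 0.92, interval −1.62 to 2.24). The forms of 20 and 23 nt were at −0.62 and −0.39, and miR398b-p5 at −0.55. These comparisons share the mature allotetraploid libraries, so their values are not independent.

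The listed length forms of miR398a were less uniform in the second C. sativus library. Of the reads of the 3 forms, the 20-nt form took 20.5% there (Wilson 95% interval 18.9 to 22.2) and 3.48% (3.0 to 4.08) in the first C. sativus library. C. hystrix had 2.51% and 3.46% of it and the mature allotetraploid 2.72% and 1.82%. In young leaves it took 9.68% (7.07 to 13.1) and 4.82% (2.78 to 9.09). The 23-nt form took 3.91% (3.18 to 4.81) in the second C. sativus library against 0.162% to 0.829% in the other 7. The same library had 58% of its reads in fragment-like families, as the plot of form shares shows beside it. Since reads of the 20-nt and 21-nt forms seem tied in the counting, these shares may also depend on how reads were divided between listed loci. The part of RNA quality in these shares was not tested.

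**Figure D3:**
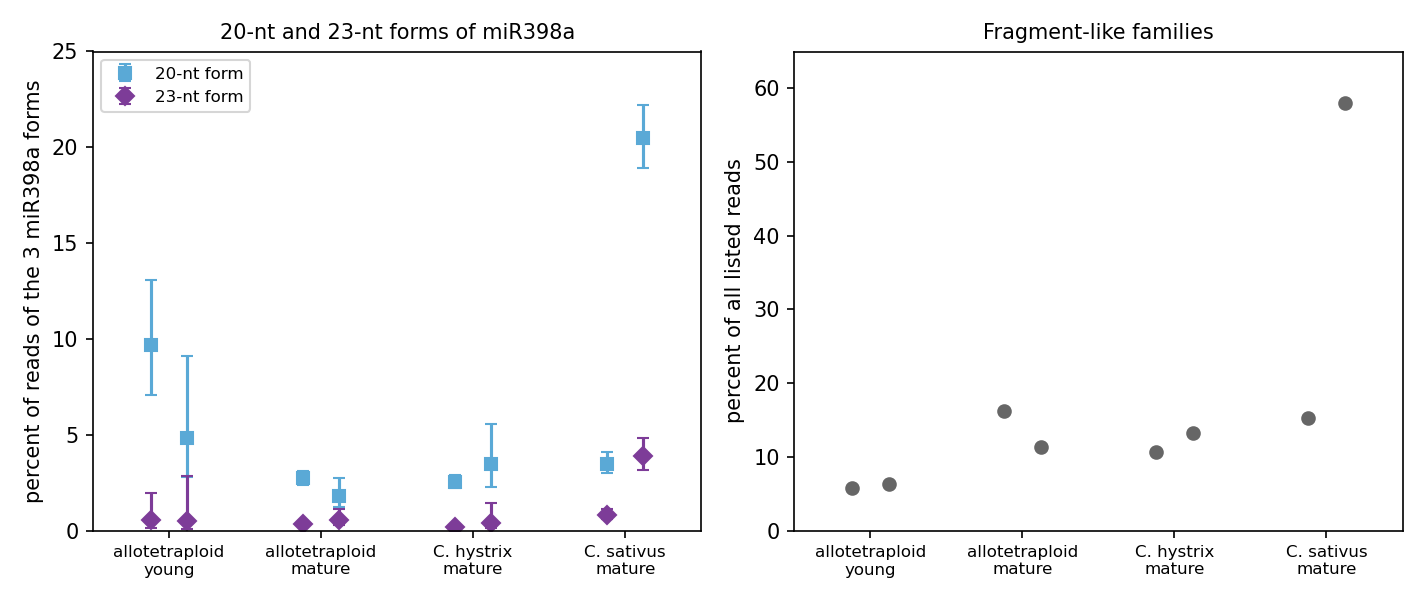
Left, the share of the 20-nt and 23-nt forms among the reads of the 3 miR398a forms in each library, in percent with Wilson 95% intervals. Right, the share of all listed reads in fragment-like families. The second C. sativus library is highest in each, at 20.5%, 3.91% and 58%.

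The passenger share of the miR398b hairpin rested on few reads. miR398b-p5 made up 11.4% and 11.6% of the reads of the pair in young leaves and 4.42% and 7.69% in mature allotetraploid leaves. C. hystrix had 18.7% and 0%, and C. sativus 7.21% and 3.45%. These shares leave out miR398a-5p, which equals the first 21 bases of miR398b-p5. It had 3 and 1 reads in young leaves and 0 and 4 in mature allotetraploid leaves, beside 24 and 17, and 5 and 6, of miR398b-p5. The second mature allotetraploid share thus depends most on this choice, and a separation of young from mature leaves cannot be read from these shares. The value of 0% rests on 0 of 8 reads and has an exact 95% upper bound of 36.9%. The highest value, 18.7%, has bounds of 12.6% and 26.2%, and those of young leaves reach from 6.88% to 17.9%. At the hairpin of miR398a on chromosome 1 the passenger had 1 read, in the second mature allotetraploid library.

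Other copper miRNAs had library patterns like that of the 21-nt miR398a. Of miR397, miR408, miR857 and miR1444, a list chosen with earlier results of these data known, 8 entries of miR397 and miR408 were in the table and 5 were tested. In young against mature leaves all 5 lay below 0, with a median of −6.52 beside −0.03 over all tested entries. That median is the value of miR397-p3, with 0 reads in both young libraries against 14 and 6 in mature ones. Its size is thus set by the floor, and in limma it was −2.61. miR408a-3p also lay near the floor, on 0.25 reads in each young library. The test called 3 of the 5 lower and 0 higher, beside the 1.92% of all tested entries that it called. miR397, which acts on laccase messages, was at 50.7 and 26.2 CPM in young leaves and at 9177 and 807 in mature ones (−7.00, SE 1.62, edgeR adjusted p = 0.029). miR408, whose targets include plantacyanin, was at 274 and 75.8 against 17360 and 4258 CPM. Its difference of −5.95 (SE 1.39) had the same adjusted p of 0.029. miR408-5p was at 17.7 and 8.74 against 3941 and 668 CPM (−7.39, SE 1.56, edgeR adjusted p = 0.029). The 3 calls were lost without either young library (edgeR adjusted p = 0.39 and 0.52), the first (0.29 to 0.3) or second (0.066 to 0.082) mature allotetraploid library, or the second C. hystrix library (0.07 to 0.075). They were also lost with scaling to conserved families (0.065). Without the first mature library miR397 was at −4.37, miR408 at −4.6 and miR408-5p at −5.6, and the sign was negative in all 17 alternatives. Among mature leaves none of the 5 was called in any of the 4 comparisons of species by edgeR.

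**Figure D4:**
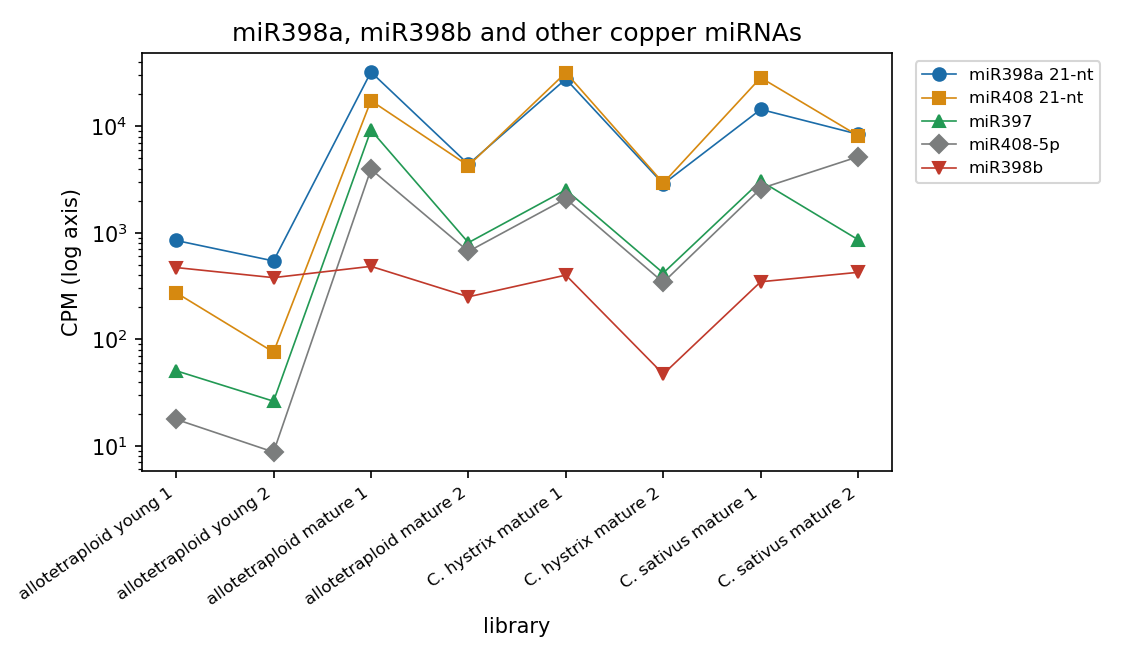
CPM (log axis) of the 21-nt miR398a, miR398b and the abundant entries of miR397 and miR408 in each library. Lines only join the points of 1 entry. miR398a, miR408, miR397 and miR408-5p are low in both young libraries and lower in the second than in the first library of the mature allotetraploid and C. hystrix, while miR398b is as high in young as in mature allotetraploid leaves.

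Across the 8 libraries, the entries most like the 21-nt miR398a by Pearson correlation of log2(CPM + 1) were miR397 (0.977), miR408 (0.963), miR408-5p (0.931), miR5368-p5 (0.874) and miR397-p3 (0.842). Over the 203 other tested entries the median was −0.078, and 8 were above 0.8. miR5368-p5 is an 18-nt entry of a fragment-like family, at 1410 and 1207 CPM in young leaves and 2396 to 4646 in mature ones. Among the miR398 members the 20-nt form had 0.832 and the 23-nt form 0.809, while miR398b had 0.177 and miR398b-p5 0.048. All points share library scaling and group structure, and young leaves weigh heavily, so these values describe the 8 libraries only.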

How the data were processed

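The values came from 1 deposited table of listed miRNAs. Its raw reads (per the file headers) are estimated counts of which 80.5% are whole within 1e-6, and they were rounded for the tests. The deposited normalized reads, a signal, equal the raw reads times 1 constant per library, chosen by the authors on grounds the sources do not give. The tests did not use them. Per the submitters' processing notes, Bowtie 0.12.8 was used. Not given in the sources used here are the genome build, the mismatches allowed and the rule for reads with several positions, and sequences of only 1 parent could be undercounted. The labels' protocols mention oligo(dT) beads and describe no small RNA library.

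The table has 843 lines with values for 733 mature sequences, each taken once (101 are at several loci, 0 with different values). No column of values went unmatched (0). Libraries were scaled by TMM (factors 0.762 to 2, the highest in the second C. sativus library), after filterByExpr kept 208 entries with at least 99.47% of reads. 5 of the 7 miR398 entries passed. The quasi-likelihood test of edgeR 4.0.16 in R 4.3.3, with robust estimation and group as the only term, was fitted over all 8 libraries and tested on simulated data. Alternatives used DESeq2 1.42.0, limma 3.58.1, other scalings, no filter, the compared groups alone, a replicate block and each library left out. Intervals of fold changes are 95% t intervals from the SE, taken as the size of the log2 change over the square root of F. Counting intervals and floors cover counting error only. Members, lists and tests were chosen with earlier results of these data known. Named were all miR398 entries, other copper entries with a mean of at least 100 CPM, and the 5 entries most correlated with the main miR398a.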

Additional observations from a re-analysis of the deposited data

How the results depend on the processing

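Depth and spread limit these results: groups have 2 libraries, the passenger arms rest on few reads, and the first and second libraries of the mature allotetraploid and of C. hystrix differ by several fold in miR398a. In young against mature leaves 0 members were called, and 1 was with RLE scaling, with DESeq2, under the replicate block or without C. hystrix 1, the 21-nt miR398a each time; leaving out single libraries gave 0 to 1, and fitting only the 2 groups gave 3. That fit of only 2 groups called 48 of all 208 entries, where the main fit called 4. Its 3 called members were the length forms of miR398a, and reads of 2 of these forms seem tied in the counting. Deviations of same-numbered libraries correlated by −0.046 to 0.328 between groups over the tested entries. That cannot show whether same-numbered libraries had anything but the number in common. The 21-nt miR398a was higher in the first library of every group, at 846 against 544 CPM in young leaves and 14371 against 8404 CPM in C. sativus. Whether the replicate number marks a shared difference was not tested. The block gave 9 called entries in place of 4 for leaf age and −0.25 for miR398a in C. hystrix minus C. sativus. In the other comparisons 0 members were called in any setting that left out no single library.

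Of 425 refitted fold changes of members, 373 kept direction and side of the threshold, 8 came to pass it and 44 changed sign. The cause was not tested. By setting, miR398b in young minus mature was −0.07 with conserved-family scaling and −0.04 without fragment-like families, and against the mid-parent −0.24 with the former. miR398a was −0.19 with that scaling against C. sativus. In C. hystrix minus C. sativus it was −0.49 by total reads, −0.66 by conserved families and −0.30 in limma. miR398b-p5 in allotetraploid minus C. sativus was −0.29 (RLE and DESeq2), −0.68 (total reads), −0.91 (conserved families), −0.34 (without fragment-like families), −0.24 (no filter) and −0.18 (2 groups alone). In limma it was 0.10 against C. hystrix, −0.04 between parents and 0.08 against the mid-parent.

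Leaving out single libraries, miR398b ranged from −0.19 to 0.76 in young minus mature, −0.13 to 2.84 against C. hystrix, −0.62 to 0.33 against C. sativus, −3.22 to 0.05 between parents and −0.23 to 1.23 against the mid-parent. The 21-nt miR398a ranged from −1.80 to 2.50, −1.38 to 1.5, −2.11 to 1.28 and −1.59 to 1.45 in the last 4 of these. miR398b-p5 ranged from −2.07 to 5.55, −0.31 to 0.50, −5.70 to 2.09 and −1.03 to 2.70. The 20-nt form ranged from −2.30 to 2.03 against C. hystrix and −3.18 to 0.25 against the mid-parent, and the 23-nt form from −0.28 to 2.37 and −1.89 to 0.35. The a to b log2 ratio ranged from −1.85 to 0.08 against C. hystrix, −0.71 to 1.22 against C. sativus and −1.28 to 0.65 against the mid-parent. In young minus mature and between parents it kept its sign in every alternative run.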
